A study of Mus musculus with 12 samples.

Results

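The genes described here are 36 genes of the antioxidant and glutathione system controlled in part by NRF2, measured by RNA-seq in bone marrow-derived macrophages (BMDMs), which are macrophages grown from mouse bone marrow in culture. The members were taken as a list of symbols, and each was matched to a gene of the deposited table through its Ensembl identifier, which gave 36 of the 48526 genes in the table. All 36 passed the count filter and were among the 12421 genes tested. The cells came from 3 C57Bl/6J female mice, were grown with the macrophage growth factor mCSF and, per the labels, were used on day 7 of culture, while the study's methods give a range of days. Every mouse gave cells that received nothing, 100 ng/mL Wnt3a, 100 pg/mL IL-4 or both factors for 16 hr, so that each of the 4 groups held 3 animals. The labels name no transgene or deleted gene. The study set out to learn how IL-4 and Wnt3a act together on macrophages.

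NRF2, encoded by *Nfe2l2*, is a transcription factor that turns on genes for detoxification and antioxidant defence. In unstressed cells KEAP1 holds it and directs its destruction, oxidants and electrophiles release it, and the autophagy receptor p62 (*Sqstm1*) competes for KEAP1. Glutathione and thioredoxin supply the electrons with which peroxidases and peroxiredoxins remove peroxides, superoxide dismutases turn superoxide into hydrogen peroxide, and catalase breaks hydrogen peroxide down. In macrophages the superoxide comes largely from the phagocyte NADPH oxidase, of which 4 members encode subunits.

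The columns for Wnt3a with and without IL-4 hold reads in common within a mouse: 0 of 48526 genes lay outside the bounds set by a Wnt3a+IL-4 column that sums a pair of libraries and a Wnt3a column that adds 1 of the pair again. Solving for that pair gave, per mouse, the part called the difference (what the Wnt3a column holds beyond the Wnt3a+IL-4 column) and the part called the remainder (what is left of the Wnt3a+IL-4 column once the difference is taken away). Both parts come from cells given Wnt3a, and which of them also had IL-4 is not stated in the labels. Total counts ranged from 13342492 to 17113982 for untreated and IL-4 libraries and from 14171994 to 17453377 for the solved parts. Levels are CPM (counts per 1e6 counts of a library) after TMM scaling, values are listed in the order of mouse 1, 2 and 3, and fold changes are on the log2 scale with their SE. A gene is said to have risen or fallen where edgeR's quasi-likelihood test gave a Benjamini-Hochberg adjusted p, over all 12421 genes, under 0.05.

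All 8 macrophage markers were detected, with summed levels of 50716 to 57885 CPM in untreated cells, 43862 to 52023 CPM with IL-4, 57445 to 67711 CPM in the difference and 56995 to 57309 CPM in the remainder. Within that sum *Mrc1*, a mannose receptor known to respond to IL-4, was higher with IL-4 (log2 fold change 2.14) and in the remainder (1.5) and lower in the difference (-0.83) than in untreated cells, and higher in the remainder than in the difference (2.33), all called. *Itgam* and *Fcgr1* were called higher in both parts (in the remainder by 0.90 and 0.60, in the difference by 1.07 each), *Adgre1* was called higher in the difference (0.31), and *Fcgr1* was lower in the remainder than in the difference (-0.47). Summed neutrophil markers were at 39.3 to 49.6, 51.5 to 61.3, 28.9 to 45.8 and 26.2 to 30.4 CPM in the same order, and 5 of 8 passed the count filter. Of these *Ngp* was called lower in both parts against untreated cells, and *S100a9* and *Camp* in the remainder. Markers of stromal cells reached 30.7 CPM, those of mast cells and basophils 4.58 CPM, those of erythroid cells 0.48 CPM (2 of 8 at 0 in every library) and those of lymphocytes 0.43 CPM. Among them *Cxcl12* was called lower in the difference (-2.71) and the remainder (-2.49), *Pdgfrb* higher in the difference (1.00), and *Kit* lower with IL-4 (-0.97), in the difference (-0.67) and in the remainder (-1.20). The part of these other cells in the results below was not tested. In bulk RNA, fewer cells of a type and less RNA per cell cannot be told apart.

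Promoter windows from RefSeq (build GRCm38.p6, the same assembly as mm10), 250 bases before to 50 bases after a gene start, were given for 31 of the 36 members in 39 windows. The antioxidant response element is the site that NRF2 binds with small MAF proteins, and its core TGACNNNGC, read on both strands, occurred in 8 of these windows (20.5%), each of a different member, and in 4071 of all 32851 windows (12.4%). The stretches around 7 matches are shown because they are the members whose promoter window holds the letters of the NRF2 site, and capitals mark the match. All are written on the gene's own strand, where the match reads forward in Nfe2l2 and Mt2 and on the opposite strand in the rest.
Nfe2l2 (chr2:75704875-75704913, gene strand minus): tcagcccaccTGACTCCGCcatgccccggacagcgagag
Gclm (chr3:122245403-122245451, gene strand plus): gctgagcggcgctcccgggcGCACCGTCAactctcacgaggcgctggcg
Mgst1 (chr6:138140451-138140499, gene strand plus): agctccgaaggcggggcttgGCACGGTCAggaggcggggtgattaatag
Txnrd1 (chr10:82859094-82859142, gene strand plus): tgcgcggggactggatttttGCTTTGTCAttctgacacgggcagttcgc
Prdx1 (chr4:116685446-116685494, gene strand plus): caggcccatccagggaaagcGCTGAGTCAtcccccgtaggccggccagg
Sod1 (chr16:90220686-90220734, gene strand plus): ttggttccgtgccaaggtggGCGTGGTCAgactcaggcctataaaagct
Mt2 (chr8:94172519-94172567, gene strand plus): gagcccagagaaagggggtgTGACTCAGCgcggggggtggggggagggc
The first base of the match lay 240 bases before the RefSeq start of the window in *Nfe2l2*, 134 in *Gclm*, 56 in *Mgst1*, 92 in *Txnrd1*, 133 in *Prdx1*, 56 in *Sod1* and 79 in *Mt2*. The eighth, GCTAGGTCA in *Srxn1*, lay 28 bases after that start. Gene positions given below are from GENCODE, and their starts can differ from the RefSeq ones. Among these 8 members and against untreated cells, *Mgst1* rose in both parts, *Prdx1* rose in the difference, *Gclm* and *Txnrd1* fell in both parts, *Nfe2l2*, *Sod1* and *Mt2* fell in the remainder, and *Srxn1* was not called. A match is a description of letters in a window and was not tested as a binding site.

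Against untreated cells, members of the system moved in both directions in the Wnt3a-treated parts. In the difference 15 of 36 members (41.7%) were higher and 7 (19.4%) were lower, beside 11.8% and 11.4% of all tested genes. In the remainder 14 (38.9%) were higher and 11 (30.6%) were lower, beside 13.6% and 11.7% of all tested genes. The median log2 fold change was 0.19 over the members and -0.01 over all genes in the difference, and 0.14 and -0.02 in the remainder. Both comparisons use the same untreated libraries.

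In both parts the 3 largest rises were those of the mitochondrial superoxide dismutase *Sod2*, the peroxiredoxin *Prdx5* and the quinone reductase *Nqo1*, followed in the difference by *Prdx6* (1.03) and the NADPH oxidase subunit *Cybb* (1.00) and in the remainder by *Prdx4* (0.76) and *Prdx6* (0.74). The largest falls in the difference were those of the secreted glutathione peroxidase *Gpx3*, the transferase *Mgst3* and catalase (*Cat*), and in the remainder those of *Gpx3*, *Cat* and the metallothionein *Mt2*. Scaling by total counts in place of TMM gave 12 higher and 11 lower in the difference and 11 higher and 14 lower in the remainder. Over all tested genes that scaling gave 1131 higher and 2238 lower in the difference, where TMM gave 1462 and 1422. In the remainder it gave 1293 higher and 2342 lower, where TMM gave 1687 and 1450. Total-count scaling moved the median of all genes to -0.10 and -0.13, and 0 called members changed sign. Without mouse 3, and so with 2 animals a group, the number called was 10 in place of 22 in the difference and 13 in place of 25 in the remainder. Over all tested genes it was 1227 in place of 2884 in the difference and 1388 in place of 3137 in the remainder. The plot of both parts against untreated cells shows every member by role.

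**Figure D1:**
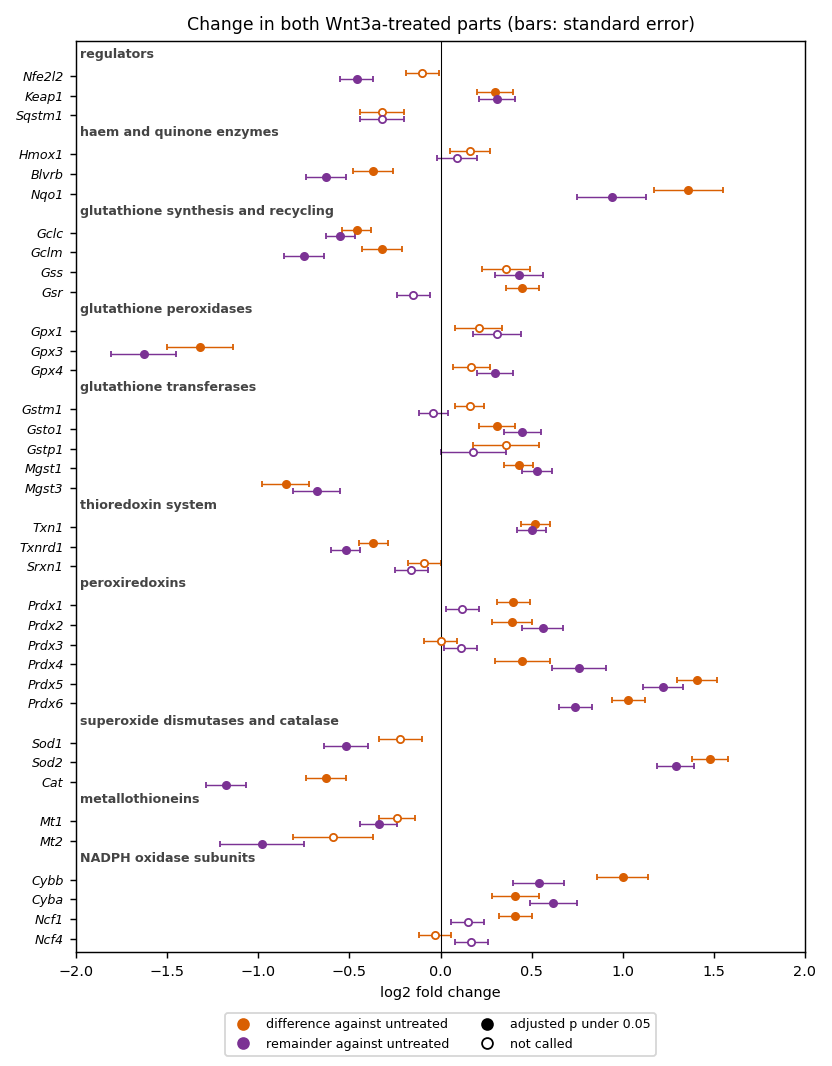
Log2 fold change (x axis) of each of the 36 members (y axis, grouped by role) in the difference (orange) and the remainder (purple) against untreated cells, with bars of 1 SE and filled points for an adjusted p under 0.05. *Sod2*, *Prdx5* and *Nqo1* lie farthest to the right and *Gpx3* farthest to the left in both parts, and *Gsr* is called in the difference alone.

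Among the regulators, *Nfe2l2* itself fell in the remainder. It ranged over 452 to 496 CPM in untreated cells, 396 to 481 CPM with IL-4, 425 to 456 CPM in the difference and 312 to 378 CPM in the remainder. All 3 remainder libraries lay below all untreated libraries (-0.46 ± 0.09, adjusted p = 0.0017), while the difference did not pass the test (-0.10 ± 0.09, adjusted p = 0.48). *Keap1*, the inhibitor, ranged over 52.1 to 60.3 CPM in untreated cells, 54.3 to 60.1 CPM with IL-4, 66.2 to 74.6 CPM in the difference and 60.7 to 79 CPM in the remainder. It rose in the difference (0.30 ± 0.10, adjusted p = 0.042) and in the remainder (0.31 ± 0.10, adjusted p = 0.036), in each case with no overlap with the untreated libraries. *Sqstm1* was at 966 to 1178 CPM in untreated cells, 848 to 1101 CPM with IL-4, 809 to 865 CPM in the difference and 738 to 945 CPM in the remainder, and its log2 fold change was -0.32 ± 0.12, adjusted p = 0.063 in the difference and -0.32 ± 0.12, adjusted p = 0.053 in the remainder, neither past the threshold. With DESeq2 *Sqstm1* was called lower in both (adjusted p = 0.047 and 0.034), as it was without mouse 1 (0.034 and 0.011). The calls of *Keap1* were lost with the mouse as a block (adjusted p = 0.072 and 0.064), without mouse 1 (0.11 and 0.36, the latter at 0.15), without mouse 3 (0.32 and 0.23) and under total-count scaling (0.073 and 0.086), and that of *Nfe2l2* in the remainder was lost without mouse 3 (0.1). Of the exon bases of *Sqstm1* and *Keap1*, 17.3% and 10.9% overlap a gene on the other strand, and the strand setting of the counting is not given in the sources used here.

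Of the haem and quinone enzymes, 1 rose, 1 fell and 1 was not called in both parts. *Nqo1* (ENSMUSG00000003849, chromosome 8, 107388225 to 107403206 of mm10), a quinone reductase and a classic NRF2 target, was at 5.27, 5.15 and 3.76 CPM in untreated cells, 5.21, 5.62 and 4.18 CPM with IL-4, 11.8, 11.5 and 13.1 CPM in the difference and 10.6, 6.76 and 9.92 CPM in the remainder. All 6 libraries of the parts lay above all 6 untreated and IL-4 libraries, with log2 fold changes of 1.36 ± 0.19, adjusted p = 0.00012 in the difference and 0.94 ± 0.19, adjusted p = 0.0021 in the remainder. *Blvrb* (ENSMUSG00000040466, chromosome 7, 27447978 to 27466144), which encodes biliverdin reductase B, was at 253, 324 and 301 CPM in untreated cells, 262, 241 and 264 CPM with IL-4, 205, 225 and 249.6 CPM in the difference and 206, 159.8 and 203 CPM in the remainder. It fell in both parts (-0.37 ± 0.11, adjusted p = 0.03 in the difference and -0.63 ± 0.11, adjusted p = 0.00098 in the remainder), and every library of the parts was below every untreated library. *Hmox1*, which encodes the inducible haem oxygenase and is also a classic NRF2 target, ranged over 631 to 763 CPM in untreated cells, 611 to 711 CPM with IL-4, 716 to 828 CPM in the difference and 633 to 832 CPM in the remainder. Its libraries overlapped those of untreated cells in both parts, with 0.16 ± 0.11, adjusted p = 0.31 in the difference and 0.09 ± 0.11, adjusted p = 0.59 in the remainder. The call of *Blvrb* in the difference was lost without mouse 2 (adjusted p = 0.11) and without mouse 3 (0.14), and that of *Nqo1* in the remainder without mouse 3 (0.082).

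Both subunits of the rate-limiting enzyme of glutathione synthesis fell. *Gclc*, the catalytic subunit, ranged over 55 to 61.5 CPM in untreated cells, 54.2 to 63 CPM with IL-4, 41.6 to 43 CPM in the difference and 37.6 to 41.6 CPM in the remainder, with -0.46 ± 0.08, adjusted p = 0.001 in the difference and -0.55 ± 0.08, adjusted p = 0.00022 in the remainder. *Gclm* (ENSMUSG00000028124, chromosome 3, 122245557 to 122270732), the modifier subunit, was at 260.1, 259 and 269 CPM in untreated cells, 238, 191 and 205 CPM with IL-4, 221, 191 and 217 CPM in the difference and 153, 134 and 181 CPM in the remainder. Its untreated libraries were the highest of the 12, and it fell by the test in the difference (-0.32 ± 0.11, adjusted p = 0.044) and the remainder (-0.75 ± 0.11, adjusted p = 0.00014). *Gss*, the synthetase of the second step, of whose exon bases 15.4% overlap *Acss2* and others on the other strand, ranged over 13.2 to 16.5 CPM in untreated cells, 12.9 to 17.6 CPM with IL-4, 18.5 to 20.4 CPM in the difference and 17.7 to 22.3 CPM in the remainder and rose in the remainder (0.43 ± 0.13, adjusted p = 0.03), while the difference missed the threshold (0.36 ± 0.13, adjusted p = 0.069). *Gsr* (ENSMUSG00000031584, chromosome 8, 33652523 to 33698163), which encodes the reductase that regenerates glutathione, was at 101, 100.4 and 106 CPM in untreated cells, 111, 89.3 and 92.9 CPM with IL-4, 138, 139 and 145 CPM in the difference and 86.1, 88.7 and 102 CPM in the remainder. The 3 libraries of the difference stood above the other 9, and *Gsr* rose there (0.45 ± 0.09, adjusted p = 0.0023), while its remainder libraries overlapped the untreated ones (-0.15 ± 0.09, adjusted p = 0.24) and were called lower under total-count scaling (0.035). The call of *Gclm* in the difference was lost without any 1 mouse (adjusted p = 0.088, 0.1 and 0.17 without mouse 1, 2 and 3) and with DESeq2's size factors (0.053), and that of *Gclc* without mouse 3 (0.057). The call of *Gss* was lost without mouse 1 (0.24, log2 fold change 0.27), without mouse 3 (0.18), with the mouse as a block (0.056) and in a fit of only the groups compared (0.068).

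Of the 3 glutathione peroxidases, 1 fell in both parts and 1 rose in the remainder. *Gpx3* (ENSMUSG00000018339, chromosome 11, 54902453 to 54910377), the secreted enzyme, was at 76.1, 94.7 and 94.8 CPM in untreated cells, 63.1, 65.7 and 70.6 CPM with IL-4, 27.9, 33.4 and 45.7 CPM in the difference and 23.7, 25.8 and 36.3 CPM in the remainder. Each library of the parts was below each untreated and IL-4 library, with log2 fold changes of -1.32 ± 0.18, adjusted p = 8.3e-05 in the difference and -1.63 ± 0.18, adjusted p = 1e-05 in the remainder. *Gpx4*, which reduces lipid peroxides in membranes, ranged over 58.1 to 67.7 CPM in untreated cells, 59.8 to 67.8 CPM with IL-4, 62.6 to 76.6 CPM in the difference and 71.2 to 84.8 CPM in the remainder and rose in the remainder (0.30 ± 0.10, adjusted p = 0.041) but did not pass in the difference (0.17 ± 0.10, adjusted p = 0.24). Its call was lost without mouse 1 (adjusted p = 0.22, log2 fold change 0.19), without mouse 3 (0.19), with the mouse as a block (0.066), under total-count scaling (0.11) and in a fit of only the groups compared (0.082). It also shares 34.7% of its 50-base stretches with other genes, most with the pseudogene *Gpx4-ps2*, so its counts are uncertain. *Gpx1*, the abundant cytosolic enzyme, ranged over 397 to 515 CPM in untreated cells, 548 to 666 CPM with IL-4, 505 to 545 CPM in the difference and 448 to 679 CPM in the remainder, with 0.21 ± 0.13, adjusted p = 0.28 in the difference and 0.31 ± 0.13, adjusted p = 0.11 in the remainder. Without mouse 2 it was called higher in the remainder (log2 fold change 0.55, adjusted p = 0.007), as it was when genes with at least 1 count were tested (0.0084).

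The glutathione transferases, which join glutathione to other molecules, went different ways. *Mgst3* (ENSMUSG00000026688, chromosome 1, 167371966 to 167393841), a microsomal transferase, was at 49.2, 52 and 44.8 CPM in untreated cells, 61.1, 53.4 and 51.4 CPM with IL-4, 26.2, 25.6 and 29.1 CPM in the difference and 36, 23.5 and 31.8 CPM in the remainder. It fell in the difference (-0.85 ± 0.13, adjusted p = 0.00036) and the remainder (-0.68 ± 0.13, adjusted p = 0.0017), with no library of the parts as high as any of the other 6. *Mgst1*, another microsomal member, ranged over 149 to 159 CPM in untreated cells, 203 to 231 CPM with IL-4, 195 to 219.8 CPM in the difference and 210.1 to 236 CPM in the remainder and rose in both (0.43 ± 0.08, adjusted p = 0.0012 in the difference and 0.53 ± 0.08, adjusted p = 0.00017 in the remainder). *Gsto1*, an omega-class transferase, ranged over 131 to 159.5 CPM in untreated cells, 136 to 169.6 CPM with IL-4, 172 to 180.5 CPM in the difference and 172 to 217 CPM in the remainder and rose in both (0.31 ± 0.10, adjusted p = 0.048 and 0.45 ± 0.10, adjusted p = 0.0054). *Gstm1* ranged over 337 to 391 CPM in untreated cells, 259.97 to 295 CPM with IL-4, 384 to 416 CPM in the difference and 322 to 372 CPM in the remainder and was not called against untreated cells in either part (0.16 ± 0.08, adjusted p = 0.19 and -0.04 ± 0.08, adjusted p = 0.79). *Gstp1* ranged over 12.5 to 16.6 CPM in untreated cells, 11.3 to 15.5 CPM with IL-4, 13.3 to 21.6 CPM in the difference and 13.2 to 17.2 CPM in the remainder and was not called. *Gstp1* shares 33.7% of its 50-base stretches with other genes, most with *Gstp2*, and *Gstm1* 18.9%, most with *Gstm2-ps1*, so both are uncertain. The call of *Gsto1* in the difference was lost without mouse 1 (adjusted p = 0.13) or 3 (0.29), with the mouse as a block (0.064), under total-count scaling (0.072) and with a filter of at least 1 CPM in at least 3 libraries (0.05), and without mouse 3 so were those of *Mgst1* in the difference (0.071) and *Gsto1* in the remainder (0.12).

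Thioredoxin rose while its reductase fell. *Txn1* (ENSMUSG00000028367, chromosome 4, 57943373 to 57956411), cytosolic thioredoxin, was at 195, 180.3 and 166 CPM in untreated cells, 147, 166 and 172 CPM with IL-4, 258, 250.1 and 267 CPM in the difference and 253, 273 and 239.7 CPM in the remainder. All 6 libraries of the parts were above all 6 others, with 0.52 ± 0.08, adjusted p = 0.00048 in the difference and 0.50 ± 0.08, adjusted p = 0.00053 in the remainder. *Txnrd1*, which encodes thioredoxin reductase, ranged over 333 to 358 CPM in untreated cells, 327 to 364 CPM with IL-4, 262 to 274 CPM in the difference and 231 to 264 CPM in the remainder, without overlap between the parts and the rest. It fell in the difference (-0.37 ± 0.08, adjusted p = 0.0027) and in the remainder (-0.52 ± 0.08, adjusted p = 0.00015), and the first of these calls was lost without mouse 3 (adjusted p = 0.062). *Srxn1*, which encodes sulfiredoxin, the enzyme that repairs over-oxidised peroxiredoxins, ranged over 182 to 212 CPM in untreated cells, 176 to 207 CPM with IL-4, 177 to 198 CPM in the difference and 163 to 184 CPM in the remainder and was not called (-0.09 ± 0.09, adjusted p = 0.52 and -0.16 ± 0.09, adjusted p = 0.2), though under total-count scaling it was called lower in the remainder (0.007).

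Of the 6 peroxiredoxins, 5 rose in the difference, 4 rose in the remainder and the rest were not called. *Prdx5* (ENSMUSG00000024953, chromosome 19, 6906697 to 6910106), whose product reaches mitochondria and peroxisomes, was at 246, 279.6 and 246 CPM in untreated cells, 263, 254 and 231 CPM with IL-4, 648, 704 and 693 CPM in the difference and 711, 561 and 526 CPM in the remainder. Every library of the parts exceeded every untreated and IL-4 library, with log2 fold changes of 1.41 ± 0.11, adjusted p = 4.5e-07 in the difference and 1.22 ± 0.11, adjusted p = 1.4e-06 in the remainder. The annotation places 19.1% of the exon bases of *Prdx5* over *Trmt112* on the other strand. *Prdx6* (ENSMUSG00000026701, chromosome 1, 161240112 to 161251219), which encodes a peroxiredoxin that also acts on phospholipids, was at 106, 112 and 98.2 CPM in untreated cells, 101, 96.4 and 93.3 CPM with IL-4, 214, 203 and 226 CPM in the difference and 191, 155 and 181 CPM in the remainder. The order was again without overlap (1.03 ± 0.09, adjusted p = 1.1e-06 in the difference and 0.74 ± 0.09, adjusted p = 2e-05 in the remainder). *Prdx4* (ENSMUSG00000025289, chromosome X, 155323918 to 155340754), a peroxiredoxin of the secretory pathway, was at 66, 62.9 and 62 CPM in untreated cells, 99.7, 73.4 and 72.7 CPM with IL-4, 95.9, 80.3 and 84.6 CPM in the difference and 128, 81.2 and 115 CPM in the remainder. It rose in both parts (0.45 ± 0.15, adjusted p = 0.046 and 0.76 ± 0.15, adjusted p = 0.0019), and its remainder libraries were spread widely.

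*Prdx1* (ENSMUSG00000028691, chromosome 4, 116685544 to 116700822), the peroxiredoxin with the highest level per kilobase of exon in untreated cells, was at 1214, 1214 and 1201 CPM in untreated cells, 1133, 1069 and 927 CPM with IL-4, 1641, 1423 and 1707 CPM in the difference and 1311, 1240.1 and 1397 CPM in the remainder. It rose in the difference (0.40 ± 0.09, adjusted p = 0.0071), while the remainder, though also above every untreated library, did not pass the test (0.12 ± 0.09, adjusted p = 0.37). Of its 50-base stretches 8.29% occur in other genes, most in *Gm21399*. *Prdx2*, a cytosolic member with 11.5% of its exon bases over *Junb* and *Rnaseh2a* on the other strand, ranged over 145 to 168 CPM in untreated cells, 163 to 187 CPM with IL-4, 192 to 209.97 CPM in the difference and 194 to 269.5 CPM in the remainder and rose in both parts (0.39 ± 0.11, adjusted p = 0.019 and 0.56 ± 0.11, adjusted p = 0.0016). *Prdx3*, the mitochondrial member, ranged over 51.4 to 56.2 CPM in untreated cells, 52.6 to 60.6 CPM with IL-4, 48.5 to 58.6 CPM in the difference and 58.1 to 58.3 CPM in the remainder and was not called (-0.00 ± 0.09, adjusted p = 0.99 and 0.11 ± 0.09, adjusted p = 0.38). Without mouse 3, calls were lost for *Prdx1* (adjusted p = 0.13), *Prdx2* (0.25) and *Prdx4* (0.24) in the difference and for *Prdx2* (0.052) and *Prdx4* (0.078) in the remainder. *Prdx4* in the difference was also not called without mouse 1 (0.079) or under total-count scaling (0.09).

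The 2 superoxide dismutases moved apart. *Sod2* (ENSMUSG00000006818, chromosome 17, 13006846 to 13040063), the mitochondrial manganese enzyme, was at 123, 128 and 108 CPM in untreated cells, 124, 118 and 107 CPM with IL-4, 361, 333 and 307 CPM in the difference and 326, 283 and 273 CPM in the remainder. Each of the 6 libraries of the parts lay far above the highest of the untreated and IL-4 libraries, with log2 fold changes of 1.48 ± 0.10, adjusted p = 1.4e-07 in the difference and 1.29 ± 0.10, adjusted p = 3e-07 in the remainder. Its transcripts share 21% of their 50-base stretches with other genes, most with *AC166110.4*. *Sod1*, the cytosolic copper and zinc enzyme, ranged over 227 to 276 CPM in untreated cells, 199.8 to 223 CPM with IL-4, 195 to 234 CPM in the difference and 142 to 202 CPM in the remainder. It fell in the remainder (-0.52 ± 0.12, adjusted p = 0.0047) but not by the test in the difference (-0.22 ± 0.12, adjusted p = 0.21), although total-count scaling called it lower there (0.04). Without mouse 2 the remainder value was -0.32 (adjusted p = 0.062), and without mouse 3 the adjusted p was 0.074. *Cat* (ENSMUSG00000027187, chromosome 2, 103453849 to 103485160), the peroxisomal catalase, was at 1243, 1358 and 1506 CPM in untreated cells, 1104, 997 and 1096 CPM with IL-4, 828, 856 and 971 CPM in the difference and 515, 607 and 693 CPM in the remainder. The groups followed each other without overlap from untreated to IL-4, the difference and the remainder, and *Cat* fell in the difference (-0.63 ± 0.11, adjusted p = 0.0009) and the remainder (-1.18 ± 0.11, adjusted p = 3.1e-06).

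The metallothioneins, small cysteine-rich proteins that bind zinc and other metals, fell in the remainder. *Mt2* (ENSMUSG00000031762, chromosome 8, 94172664 to 94173568) was at 12.4, 12.5 and 8.72 CPM in untreated cells, 7.19, 6.58 and 7.14 CPM with IL-4, 7.61, 9.04 and 5.60 CPM in the difference and 7.64, 5.35 and 4.01 CPM in the remainder. Mouse 3 had the lowest value in 3 of the 4 groups, the remainder lay below the untreated libraries (-0.98 ± 0.23, adjusted p = 0.0052), and the difference overlapped them (-0.59 ± 0.22, adjusted p = 0.07). With the mouse as a block the difference was called lower too (adjusted p = 0.035), as it was under total-count scaling (0.043). *Mt1* ranged over 95.1 to 114 CPM in untreated cells, 81.5 to 92.7 CPM with IL-4, 85.5 to 93 CPM in the difference and 75.1 to 96.8 CPM in the remainder and fell in the remainder (-0.34 ± 0.10, adjusted p = 0.027), where the groups overlapped. That call was lost without mouse 2 (adjusted p = 0.22, log2 fold change -0.20), without mouse 3 (0.19) and in a fit of only the groups compared (0.085). Of the exon bases of *Mt2*, 73.5% overlap *Gm45774* on the other strand, so its counts are uncertain. For the metal response element the pattern TGCNCNC was searched on both strands. Because N stands for any base, the pattern is looser than the core of that element. It occurred 3 times in the promoter window of *Mt1* and 6 times in that of *Mt2*, and how many of these are core sites was not counted. Of all windows 51.0% held at least 1 match, 7.1% at least 3 and 0.225% at least 6.

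Of the 4 NADPH oxidase subunits, 3 rose in the difference and 2 in the remainder. *Cybb* (ENSMUSG00000015340, chromosome X, 9435252 to 9487771), the catalytic subunit gp91phox, was at 1693, 1343 and 1604 CPM in untreated cells, 1526, 1380.4 and 1397 CPM with IL-4, 3205, 3227 and 2875 CPM in the difference and 1791, 2858 and 2079 CPM in the remainder. The difference stood above all untreated libraries (1.00 ± 0.14, adjusted p = 0.00016), as did the remainder, in which mouse 2 was well above the other two (0.54 ± 0.14, adjusted p = 0.013). *Cyba* (ENSMUSG00000006519, chromosome 8, 122424776 to 122432930), its membrane partner p22phox, was at 795, 1048 and 838 CPM in untreated cells, 1024, 903 and 875 CPM with IL-4, 1061, 1241 and 1258 CPM in the difference and 1602, 1182 and 1349 CPM in the remainder. It rose in both parts (0.41 ± 0.13, adjusted p = 0.032 in the difference and 0.62 ± 0.13, adjusted p = 0.0023 in the remainder). *Ncf1* (ENSMUSG00000015950, chromosome 5, 134220053 to 134229625), the cytosolic organiser p47phox, was at 727, 819 and 777 CPM in untreated cells, 715, 627 and 609.6 CPM with IL-4, 998, 1039 and 1039.9 CPM in the difference and 931, 805 and 843 CPM in the remainder. It rose in the difference (0.41 ± 0.09, adjusted p = 0.0033) and overlapped untreated cells in the remainder (0.15 ± 0.09, adjusted p = 0.22). The other-strand gene *Gtf2ird2* covers 11.1% of the exon bases of *Ncf1*. *Ncf4*, p40phox, ranged over 183 to 217 CPM in untreated cells, 199.6 to 219 CPM with IL-4, 191 to 197 CPM in the difference and 203 to 249 CPM in the remainder and was not called (-0.03 ± 0.09, adjusted p = 0.84 and 0.17 ± 0.09, adjusted p = 0.17), but without mouse 2 it was called higher in the remainder (0.31, adjusted p = 0.037). The remainder value of *Cybb* was 0.23 without mouse 2 (adjusted p = 0.17), and its call was also lost without mouse 3 (0.11), under total-count scaling (0.058) and in a fit of only the groups compared (0.055). Without mouse 3, calls were lost for *Ncf1* in the difference (0.097) and for *Cyba* in both parts (0.33 and 0.081), and with the mouse as a block for *Cyba* in the difference (0.056).

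**Figure D2:**
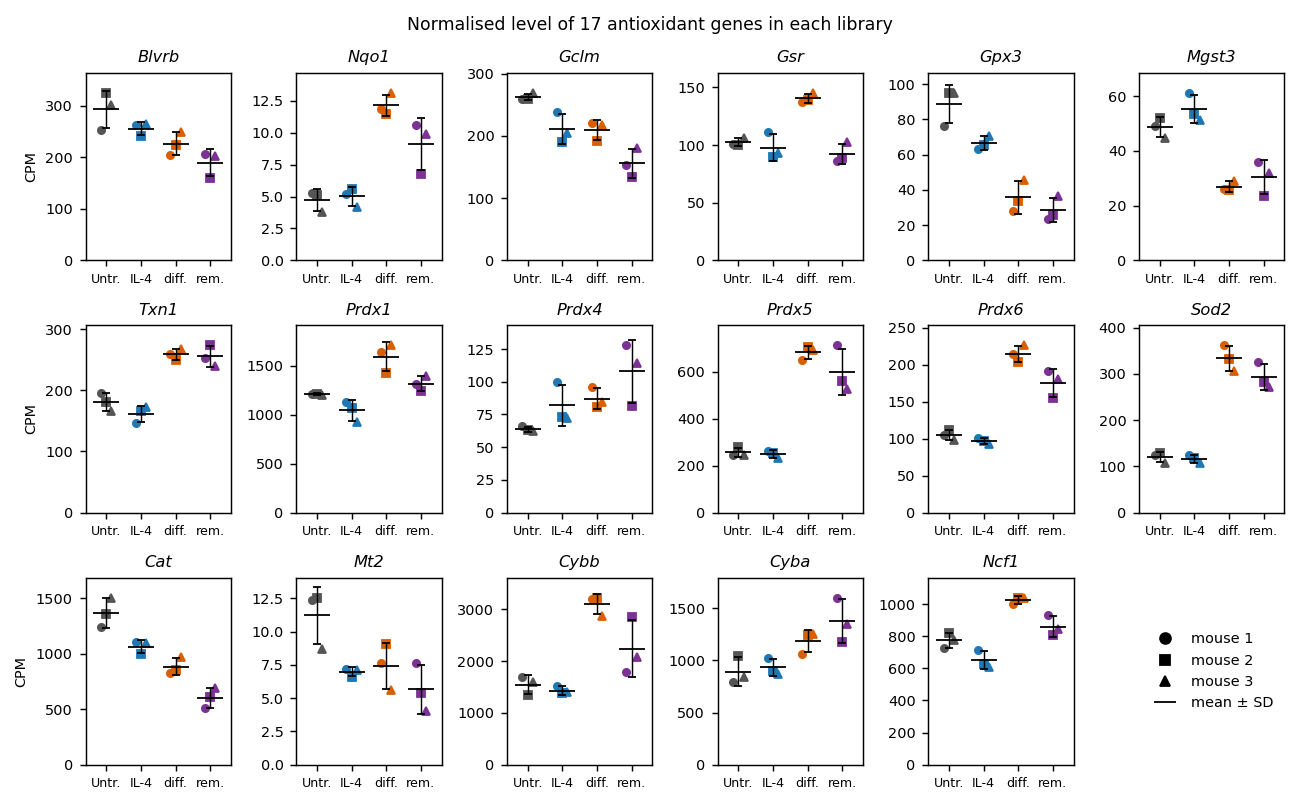
CPM (y axis, from 0) of the 17 members called with a fold of at least 1.5 in any pairwise comparison, in untreated (Untr.), IL-4, difference (diff.) and remainder (rem.) libraries; symbols mark the mouse and bars the mean and SD of 3. *Prdx5*, *Prdx6*, *Sod2*, *Txn1* and *Nqo1* are higher in all 6 libraries of the parts than in the other 6. So, by a narrow gap, are *Prdx1*, *Cybb* and *Cyba*. *Gpx3*, *Mgst3* and *Cat* are lower, and *Gsr* stands out in the difference.

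Per kilobase of exon, the order of levels among the members changed with treatment. In untreated cells *Cyba* had the highest mean level at 860 CPM per kb, followed by *Cat* at 524, *Prdx1* at 397 and *Hmox1* at 388 CPM per kb, and *Nqo1* (3.04) and *Gss* (2.56) were the lowest. In the remainder *Cat* was the eleventh of 36, at 232 CPM per kb, and in the difference *Cybb* was the second, at 534 against 266 CPM per kb in untreated cells. *Prdx5* went from 120 CPM per kb in untreated cells to 319 in the difference and 280.2 in the remainder. Neighbours in this order were not tested against each other.

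IL-4 alone moved few members past the threshold. Only *Mgst1* rose (1 of 36, 2.78%, beside 2.31% of all tested genes) and only *Gstm1* fell (2.78%, beside 1.09%). *Mgst1* was higher by 0.47 ± 0.08, adjusted p = 0.0033, and *Gstm1* was lower (-0.39 ± 0.08, adjusted p = 0.019), in both cases without overlap between IL-4 and untreated libraries. Without mouse 3 neither was called (adjusted p = 0.13 and 0.32), and *Gstm1* was not called without mouse 2 (0.15). Values of *Gpx1* (0.40 ± 0.13, adjusted p = 0.15), *Cat* (-0.36 ± 0.11, adjusted p = 0.11), *Mt2* (-0.69 ± 0.22, adjusted p = 0.14) and *Gclm* (-0.31 ± 0.11, adjusted p = 0.16) missed the threshold, although their IL-4 libraries did not overlap the untreated ones. The same held for *Gpx3* (-0.41), *Prdx4* (0.36), *Ncf1* (-0.25), *Mt1* (-0.25), *Sod1* (-0.24) and *Prdx1* (-0.21). How many of all genes showed such non-overlap was not counted. At an unadjusted p under 0.05 by edgeR, 3 of 36 members were higher and 8 were lower, beside 1790 of 12421 tested genes in either direction. By DESeq2 *Cat* was called lower (0.036). The members' median log2 fold change was -0.04, beside -0.00 over all genes.

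Between the Wnt3a-treated parts, 4 members (11.1%) were lower in the remainder than in the difference, beside 2.38% of all tested genes, and 0 were higher, beside 2.87%. By edgeR 1 member was higher and 12 were lower at an unadjusted p under 0.05, beside 2364 of 12421 tested genes in either direction. DESeq2 also called 0 members higher, beside 403 of all tested genes. *Gsr* had the largest gap (-0.61 ± 0.09, adjusted p = 0.0012), followed by *Cat* (-0.55 ± 0.11, adjusted p = 0.01), *Gclm* (-0.43 ± 0.11, adjusted p = 0.036) and *Nfe2l2* (-0.36 ± 0.09, adjusted p = 0.032). In each of these 4 genes, all 3 remainder libraries lay below all 3 of the difference. The call of *Nfe2l2* was lost with the mouse as a block (adjusted p = 0.065), without mouse 1 (0.16) or 3 (0.45) and in a fit of only the groups compared (0.062), that of *Gclm* without mouse 1, 2 or 3 (0.21, 0.056 and 0.19) and in that fit (0.081), and that of *Cat* without mouse 3 (0.11). *Cybb* (-0.47 ± 0.14, adjusted p = 0.08) and *Prdx6* (-0.29 ± 0.09, adjusted p = 0.07) also did not overlap but missed the threshold. DESeq2 called both lower in the remainder (adjusted p = 0.017 and 0.034), together with *Ncf1* (0.04) and *Prdx1* (0.05), and edgeR called *Cybb* without mouse 2 (log2 fold change -0.63, 0.0069). Without mouse 1 edgeR called *Sod1* (-0.50, adjusted p = 0.042), *Prdx5* (-0.36, 0.049) and *Ncf1* (-0.34, 0.046) lower in the remainder.

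**Figure D3:**
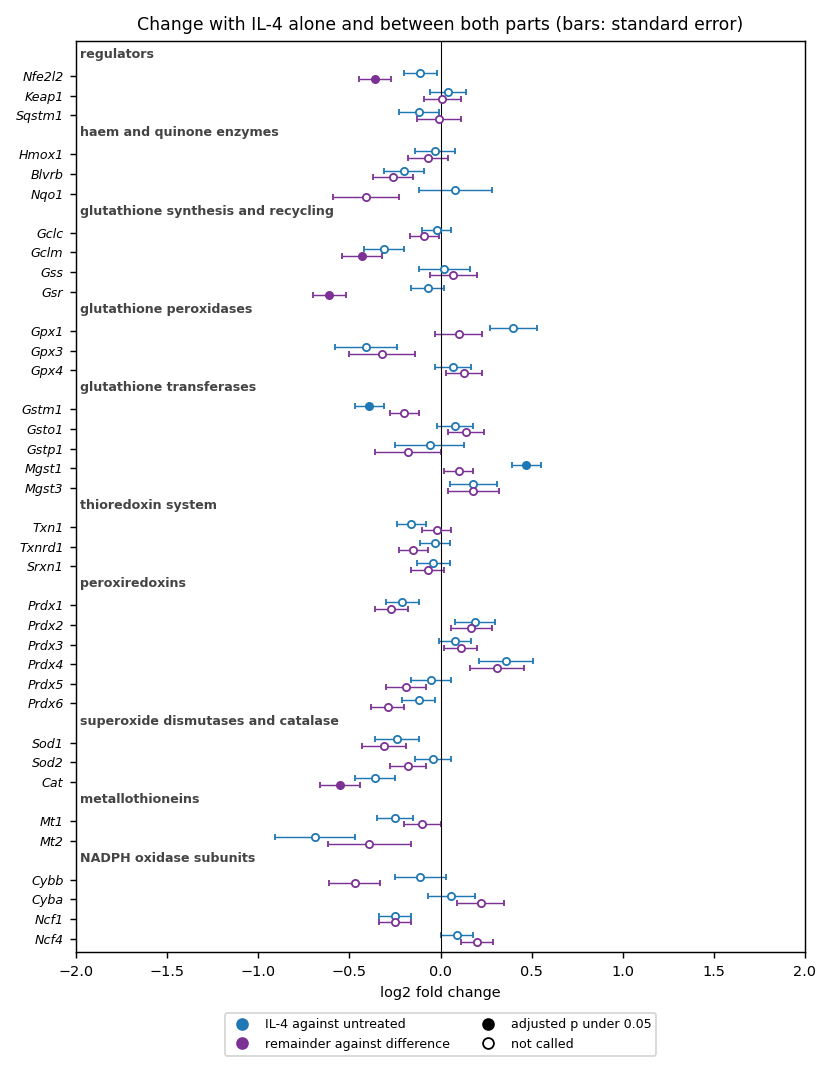
Log2 fold change (x axis) of each member (y axis, grouped by role) with IL-4 against untreated cells (blue) and in the remainder against the difference (purple), with bars of 1 SE and filled points for an adjusted p under 0.05. With IL-4 *Mgst1* is called higher and *Gstm1* lower, and between the parts *Nfe2l2*, *Gclm*, *Gsr* and *Cat* are called lower in the remainder.

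Against IL-4 alone, 10 members were higher in the difference (27.8%, beside 10.0% of all tested genes) and 4 were lower (11.1%, beside 10.3%). In the remainder 13 were higher (36.1%, beside 10.6%) and 8 were lower (22.2%, beside 9.67%). Both comparisons use the same IL-4 libraries. *Sod2* (1.52 ± 0.10, adjusted p = 8e-08 in the difference and 1.33 ± 0.10, adjusted p = 3.4e-07 in the remainder), *Prdx5* (1.45 ± 0.11, adjusted p = 3.1e-07 and 1.27 ± 0.11, adjusted p = 1.2e-06) and *Prdx6* (1.15 ± 0.09, adjusted p = 3.7e-07 and 0.86 ± 0.09, adjusted p = 6.9e-06) rose in both parts. *Gpx3* (-0.90 ± 0.18, adjusted p = 0.0017 and -1.22 ± 0.18, adjusted p = 0.00018) and *Mgst3* (-1.04 ± 0.13, adjusted p = 5.6e-05 and -0.86 ± 0.13, adjusted p = 0.00032) fell in both. *Gstm1*, which was not called in either part against untreated cells, was higher than with IL-4 in the difference (0.55 ± 0.08, adjusted p = 0.00025) and the remainder (0.35 ± 0.08, adjusted p = 0.0081).

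*Cat* was lower than with IL-4 in the remainder (-0.82 ± 0.11, adjusted p = 0.00011) and not called in the difference (-0.27 ± 0.11, adjusted p = 0.11). *Cybb* was higher in both (1.11 ± 0.14, adjusted p = 5.7e-05 and 0.64 ± 0.14, adjusted p = 0.005), as was *Ncf1* (0.66 ± 0.09, adjusted p = 6e-05 and 0.40 ± 0.09, adjusted p = 0.0037). *Gclm* was lower in the remainder (-0.44 ± 0.11, adjusted p = 0.0099) and near the IL-4 level in the difference (-0.01 ± 0.11, adjusted p = 0.96). Without mouse 3 the remainder had 10 calls in place of 21, and *Gstm1* (adjusted p = 0.22), *Cybb* (0.094), *Ncf1* (0.14) and *Nfe2l2* (0.19) were among those lost. Over all tested genes that fit gave 1041 calls in place of 2521 in the remainder against IL-4. Without mouse 2 the remainder value of *Cybb* was 0.42 (adjusted p = 0.029), and *Gclm* in the remainder was not called without mouse 1 (0.13). With the mouse as a block *Gss* was lost (0.079) and *Prdx4* was gained in the remainder (0.03). Both calls of *Gclc*, the catalytic subunit, were of a fall (-0.44 ± 0.08, adjusted p = 0.0013 in the difference and -0.53 ± 0.08, adjusted p = 0.00036 in the remainder), and the first was lost without mouse 3 (0.054).

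Whether the IL-4 effect differed with Wnt3a present depends on which part had IL-4. Taking the remainder as the culture with both factors, 0 of 36 members differed by edgeR, beside 0.105% of all tested genes. By edgeR 2 members had an unadjusted p under 0.05, beside 1576 of 12421 tested genes. DESeq2 called 1 member, beside 165 of all tested genes. Taking the difference as that culture, 8 of 36 (22.2%) differed, beside 7.33% of all tested genes, 7 of them toward a more positive and *Mgst1* toward a more negative IL-4 effect. Neither assignment was chosen from the values. The IL-4-responsive marker *Mrc1*, at 2.14 with IL-4 alone, was higher in the remainder than in the difference (2.33) and lower in the difference than in untreated cells (-0.83). Among the 8 members called with the difference as that culture, *Cat* had the largest value, at 0.91 ± 0.16, adjusted p = 0.002. Its IL-4 effect without Wnt3a was -0.36 ± 0.11. *Mt2* was at 1.08 ± 0.32 there but was not called (adjusted p = 0.06).

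Around the 36 members, a wider list of 133 genes of the same pathways was examined, of which 105 passed the count filter. In the difference 19 of these rose (18.1%) and 17 fell (16.2%), beside 11.8% and 11.4% of all tested genes. In the remainder 15 rose (14.3%) and 17 fell (16.2%), beside 13.6% and 11.7%. The median log2 fold change was 0.02 in the difference and -0.01 in the remainder. Genes that supply NADPH rose in 6 of 12 cases in the difference and 3 of 12 in the remainder, where 11.8% and 13.6% of all tested genes rose, and the rest of the group was not called. A group of 8 autophagy genes, not all of them receptors, held *Nbr1*, *Optn*, *Calcoco1*, *Tax1bp1*, *Map1lc3a*, *Map1lc3b*, *Gabarapl1* and *Wdfy3*. Of these 8, 4 fell in each part, where 11.4% and 11.7% of all tested genes fell, and the rest were not called. A group listed as regulators, not all of them regulators of NRF2, held *Nfe2l1*, *Nfe2l3*, *Bach1*, *Bach2*, *Maff*, *Mafg*, *Mafk*, *Cul3*, *Rbx1*, *Btrc*, *Tfeb* and *Osgin1*. Of the 11 tested, 5 fell and 1 rose in the difference, and 2 fell in the remainder, beside the same shares of all genes. With IL-4 alone 2 of the 105 rose and 2 fell (1.9% each), beside 2.31% and 1.09% of all tested genes.

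The cystine carrier *Slc7a11*, which brings in the building block of glutathione, ranged over 4.25 to 9.84 CPM in untreated cells, 7.36 to 7.67 CPM with IL-4, 35.0 to 59.7 CPM in the difference and 25.0 to 43.0 CPM in the remainder. It rose by 2.50 ± 0.28 in the difference (adjusted p = 1.7e-05) and by 2.08 ± 0.28 in the remainder (adjusted p = 7.4e-05), which put it opposite to *Gclc* and *Gclm*. *Mthfd2*, a mitochondrial folate enzyme that makes NADH or NADPH, went from 10.4 to 11.4 CPM in untreated cells to 38.7 to 41.0 CPM in the difference (1.87 ± 0.11, adjusted p = 6.4e-08) and 35.9 to 43.7 CPM in the remainder (1.92 ± 0.11, adjusted p = 3.5e-08). It also rose with IL-4 alone (0.48 ± 0.12, adjusted p = 0.034). *Mgst2*, another microsomal transferase, rose by 1.77 ± 0.25 in the difference (adjusted p = 0.00015) and 1.13 ± 0.26 in the remainder (adjusted p = 0.0049). *Gstt1*, a theta-class transferase, rose from 1.25 to 1.99 CPM in untreated cells to 2.76 to 3.79 CPM in the difference and 3.26 to 5.34 CPM in the remainder (adjusted p = 0.021 and 0.0044).

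Other genes of the wider list fell. The iron exporter *Slc40a1* ranged over 381 to 483 CPM in untreated cells, 165 to 202 CPM in the difference and 78.7 to 126 CPM in the remainder, with log2 fold changes of -1.22 ± 0.15 (adjusted p = 4.6e-05) and -2.01 ± 0.16 (adjusted p = 4.3e-07), and it was lower in the remainder than in the difference (adjusted p = 0.0078). *Selenop*, a secreted selenium carrier, fell by 1.14 on the log2 scale in the difference (adjusted p = 0.00034) and by 1.5 in the remainder (adjusted p = 2.7e-05). *Akr1b8*, an aldo-keto reductase, fell by 0.73 (adjusted p = 0.00046) and by 1.33 (adjusted p = 2.1e-06). *Osgin1*, an oxidative stress-induced gene, fell with IL-4 (-0.57 ± 0.13, adjusted p = 0.023), in the difference (-0.89 ± 0.13, adjusted p = 0.00018) and in the remainder (-1.24 ± 0.13, adjusted p = 8.8e-06). The autophagy receptor *Optn* fell by 0.76 (adjusted p = 0.00013) and by 0.60 (adjusted p = 0.00074). *Bach2*, a repressor at antioxidant response elements, fell in the difference (-1.32 ± 0.38, adjusted p = 0.023) from 0.84 to 2.01 CPM to 0.43 to 0.63 CPM and was not called in the remainder (-0.78 ± 0.36, adjusted p = 0.13). *Nos2*, the inducible nitric oxide synthase, had at most 1 count in an untreated library. It had 28 to 157 counts in the difference (2.04 to 8.99 CPM) and 60 to 161 in the remainder (3.69 to 10.0 CPM). Against a floor of 3 counts per untreated library, its mean level was at least 30.5-fold higher in the difference and at least 35.9-fold higher in the remainder. These folds are of group means, and single libraries lay closer to the floor.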

How the data were processed

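RNA-seq of BMDMs from 3 mice in 4 groups was analysed. Per the labels and methods, the authors used Trimmomatic 0.36 for trimming, STAR 2.6.0 for alignment to mm10 and HTSeq 0.11.1 for counting, and deposited raw counts per gene. The mouse gave 1 library to each group. Because a mouse's Wnt3a-containing columns share reads, the difference and remainder were solved for. The 36 members and all lists were chosen with earlier results of these data known. The 12421 genes that reached 10 counts in 3 or more of 12 libraries entered 1 fit in edgeR 4.0.16 (R 4.3.3), without a mouse term. TMM scaling, the quasi-likelihood test, Benjamini-Hochberg adjustment and a threshold of 0.05 were used. Members had at least 58 counts in each library, and the floor of 3 counts, used for *Nos2*, covers counting error only.

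Alternatives were DESeq2 1.42.0 (the authors used 1.24.0), DESeq2's size factors, total counts, genes with at least 1 count, at least 1 CPM in at least 3 libraries, only the groups compared, the mouse as replicate block, each mouse left out, and the columns as labelled. Same-mouse deviations correlated across genes from -0.42 to 0.45 in 18 pairs, with 6 over 0.1, and the pairing comes from the animal. The test was also run on counts simulated from the untreated means and the fitted spread of these data, and its outcome is not given here. Values in every library are given for members called in any pairwise comparison with a fold of at least 1.5, and the others by their range. Of each group of the wider list, the called gene with the largest change in each part is named if it reached 1 CPM. Gene positions and overlaps came from GENCODE vM21 on mm10, and shared 50-base stretches from its transcripts. Motifs were searched in RefSeq windows.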

Additional observations from a re-analysis of the deposited data

Results flagged for a closer look

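For 8 members the IL-4 effect differed with and without Wnt3a when the difference was taken as the culture with both factors (edgeR, adjusted over all 12421 genes). The values are log2 differences of that effect, in which 7 were positive: *Cat* 0.91 (adjusted p = 0.002), *Gclm* 0.74 (0.0078), *Gsr* 0.68 (0.0043), *Gstm1* 0.58 (0.0069), *Ncf1* 0.51 (0.019), *Prdx1* 0.49 (0.038) and *Nfe2l2* 0.47 (0.036). For *Mgst1* it was -0.57 (0.005). With the remainder taken as that culture, 0 of these members differed by edgeR. Over the 36 members 2 had an unadjusted p under 0.05 by edgeR, beside 1576 of 12421 tested genes, and DESeq2 called 1, beside 165. The labels do not say which assignment holds, and neither was chosen from values. *Mrc1*, which was higher with IL-4 alone (log2 fold change 2.14), was lower in the difference than in untreated cells (-0.83) and higher in the remainder than in the difference (2.33). Without mouse 3 only 1 member was called in the former case, where all tested genes had 262 calls in place of 910.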

How the results depend on the processing

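In the pairwise comparisons, 1049 values of members under an alternative were called there, in the fit used above, or in both. Of these 1049, 872 kept their direction and their call, 96 lost the call, 80 gained it and 1 turned its direction. Values called in neither fit were left out, so changes of direction among them were not counted. That one was *Gsr* in the remainder against IL-4, at 0.24 with the columns as labelled. Against untreated cells, 10 of 22 calls in the difference and 13 of 25 in the remainder held under every alternative, and 16 and 19 held under all except leaving out mouse 3. Leaving out 1 mouse gave 0 to 3 calls for IL-4 alone (2 with all mice), 10 to 20 in the difference (22), 13 to 24 in the remainder (25), 1 to 5 between the parts (4), 10 to 22 in the remainder against IL-4 (21) and 1 to 9 for the IL-4 effect with the difference as the culture with both factors (8). Over all tested genes, in the same order, it gave 88 to 308 (422), 1227 to 2114 (2884), 1388 to 3837 (3137), 101 to 1188 (652), 1041 to 2490 (2521) and 262 to 1429 (910). With DESeq2 the calls between the parts numbered 8, and those for the IL-4 effect 14 with that assignment and 1 (against 0) with the other. Over all tested genes DESeq2 gave 891, 1083 and 165 calls in that order, where edgeR gave 652, 910 and 13. Testing genes with at least 1 count gave 8 for IL-4 alone, 8 between the parts, 16 for the former assignment and 1 for the latter. Over the 23413 genes then tested, it gave 812, 1454, 1505 and 575 calls in that order, in place of 422, 652, 910 and 13. The columns as labelled gave 5, 0, 2 and 1 in the same order, beside 708, 0, 311 and 142 of the 13368 genes tested there. A fit of only the groups compared gave 2 between the parts, beside 429 of all tested genes. The cause was not tested, except that a fit without a mouse has fewer samples. The mouse as replicate block gave 2 calls with IL-4 alone, 20 in the difference, 22 in the remainder, 3 between the parts, 14 and 21 against IL-4 and 0 and 9 for the IL-4 effect. Over all tested genes the block gave 391, 2659, 2858, 556, 2343, 2316, 11 and 854 calls in the same order. It changed no other call against untreated cells, IL-4 or between the parts than those given in the report.

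With 3 mice a group, a change that missed the threshold is not shown to be absent, and the low counts of *Mt2*, *Nqo1* and *Gstp1* limit what their values can show.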
